A study of Mus musculus with 11 samples.

Results

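The cells described here were hepatic stellate cells of the fibrotic mouse liver that held transcripts of both Ltbp2 and Alcam. They came from 1 droplet library made after 6 weeks of carbon tetrachloride (CCl4), and a cell was chosen by at least 1 unique molecular identifier (UMI, 1 captured transcript) of each gene, in a cell with at least 300 detected genes and at most 30% mitochondrial UMIs. Of the 5454 cells of the library, all of which passed those limits, 531 had both genes, 115 had Ltbp2 alone, 2240 had Alcam alone and 2568 had neither. The whole series held 30999 such cells in 5 droplet libraries.

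All libraries came from liver cells of adult male Pdgfrb-BAC-eGFP mice on a C57BL/6 background, whose reporter marks the mesenchyme, sorted as viable, GFP-positive, CD45- and CD102- cells. The groups used were an uninjured HSC library, an HSC library taken 72 h after a single CCl4 dose, the HSC library taken after 6 weeks of repeated CCl4, and an uninjured and a 6-week CCl4 library of the PF protocol, each from 3 pooled mice. The HSC protocol perfused the liver in the retrograde direction and enriched stellate cells on a density gradient, whereas the PF protocol digested the tissue for the other mesenchyme, so the gradient and the sort set which cells each library could hold. With 1 library for each condition and isolation, and mice pooled within it, no difference between conditions has a replicate check, and every interval below is a 95% interval for counting error only.

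Hepatic stellate cells lie between hepatocytes and sinusoidal endothelium, store vitamin A as retinyl esters, and in injury take on matrix production. Ltbp2 encodes a latent TGF-beta binding protein that sits on elastic microfibrils and does not itself bind latent TGF-beta. Alcam (CD166) encodes an adhesion molecule of the immunoglobulin family, Mdk the heparin-binding growth factor midkine, and Wt1 a zinc finger transcription factor of the mesothelium and of the septum from which liver mesenchyme develops. On GRCm38, Ltbp2 lies at chr12:84783212-84876532 and Alcam at chr16:52248996-52454074, both on the minus strand, Mdk at chr2:91929805-91932297 on the minus strand, and Wt1 at chr2:105126529-105173616 on the plus strand, and each is protein coding.

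The library held 52235706 UMIs, with a median of 9893 per cell. Cells with both genes were slightly deeper than the rest. Their median was 10651 UMIs and 3069 genes, against 9428 UMIs and 2918.5 genes in cells with neither. The middle of the depth distribution overlapped widely, from 8349 to 12626.5 UMIs (quartiles) in the former and from 5916.5 to 11265.8 in the latter, and the mitochondrial share stood at a median of 1.82% against 1.80%. Because a deeper cell passes the rule more easily, shares are also given after every cell was thinned at random to 4000 UMIs, which left out 20 cells with both genes, 11 with Ltbp2 only, 139 with Alcam only and 274 with neither. The library shared between 33 and 56 cell barcodes with each of the other libraries, at most 1.03% of its cells, and between 4 and 8 of these were cells with both genes.

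The UMI counts ran on across the threshold without a gap. Among the 531 chosen cells the median was 1 Ltbp2 UMI and 5 Alcam UMIs, with at most 16 and 29. Just inside the rule were 56 cells with exactly 1 UMI of each gene, and just outside it were the 115 cells with Ltbp2 alone, at a median of 1 UMI and a maximum of 5, and the 916 cells with a single Alcam UMI and no Ltbp2. By selection Ltbp2 stood at 199 CPM (counts per 1000000 UMIs) and Alcam at 569 CPM in the chosen cells. In cells with Ltbp2 only Ltbp2 stood at 116 CPM, and in cells with Alcam only Alcam stood at 323 CPM.

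The selected pair was almost absent from the uninjured stellate cells. Cells with both genes made up 9.74% of the 6-week HSC library (8.96 to 10.6), 24.9% of the 72 h HSC library (23.9 to 25.9; 1818 of 7310 cells) and 0.0146% of the uninjured HSC library (1 of 6850 cells, with an upper limit of 0.0813%). They made up 0.425% of the 6-week PF library and 0.331% of the uninjured PF library, with 24 and 19 cells. The order of the 3 HSC libraries was the same at 4000 UMIs, where the shares were 5.33% (4.72 to 5.99) at 6 weeks, 7.82% (7.20 to 8.47) at 72 h and 0.0162% in uninjured cells. Thinning lowers every such share, and at 4000 UMIs Ltbp2 itself was seen in 17.5% of cells at 72 h and 7.09% at 6 weeks.

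**Figure D1:**
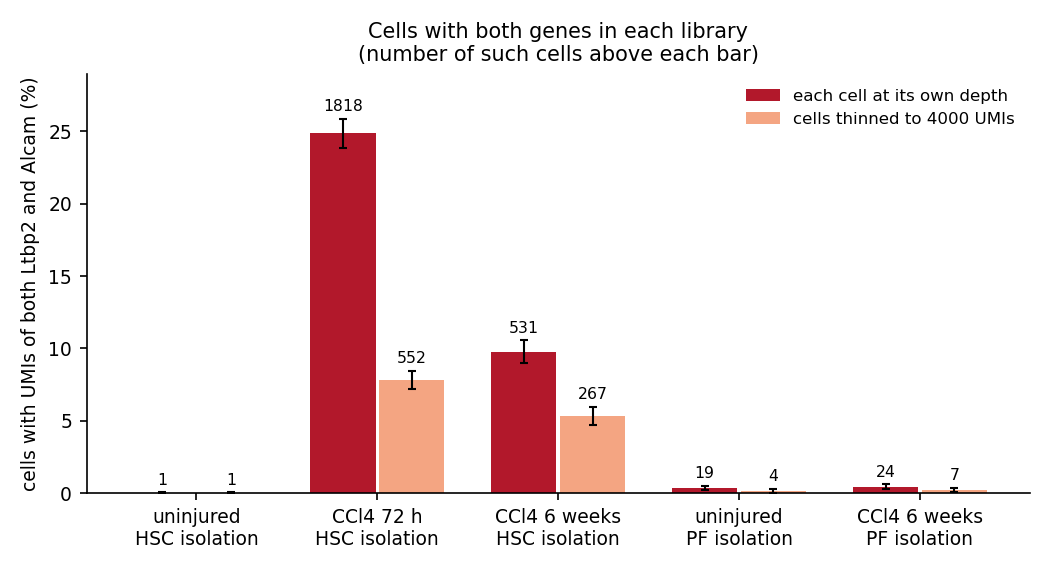
Share of cells (%) with at least 1 UMI of both Ltbp2 and Alcam in each of the 5 droplet libraries, at each cell's own depth (dark bars) and after thinning to 4000 UMIs (light bars); error bars are exact binomial 95% intervals and the number above a bar is the count of such cells. The pair was found in 531 cells at 6 weeks and 1818 at 72 h, against 1 cell in the uninjured HSC library.

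The pair differed in how each gene stood across the HSC libraries. Ltbp2 was at 0.0647 CPM in the uninjured library (3 UMIs in all), 74.7 CPM at 72 h and 24.4 CPM at 6 weeks. Alcam was at 26.9 CPM in the uninjured library, 146 CPM at 72 h and 201 CPM at 6 weeks. Ltbp2 was thus highest at 72 h and Alcam at 6 weeks, with counting intervals of the 3 libraries that did not overlap for either gene. In the PF libraries both genes were low, at 9.17 and 14.6 CPM for Ltbp2 and 10.97 and 16.9 CPM for Alcam at 6 weeks and without injury.

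At equal depth the shares of cells with Alcam were further apart in the 6-week than in the 72 h HSC library. Among cells thinned to 4000 UMIs, 75.2% of those with Ltbp2 had Alcam, against 33.1% of those without Ltbp2. At 72 h the same shares were 44.6% and 33.2%. In the 6-week PF library they were 6.60% and 2.92%, and in the uninjured PF library 2.52% and 3.73%, values that rested on 7 and 4 cells with both genes.

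Nearly every chosen cell had UMIs of stellate cell genes. Lrat, which makes retinyl esters, had a UMI in 518 of 531 cells (97.6%), and Reln, the extracellular protein reelin that marks stellate cells in liver, in 517 (97.4%). The same genes had a UMI in 2.12% and 0.283% of cells of the 6-week PF library, a separate suspension of other mesenchyme at a median of 5097.5 UMIs per cell. At least 3 of the 7 stellate markers looked at (Lrat, Reln, Vipr1, Colec11, Pth1r, Ecm1 and Hgf) were seen in 530 of 531 chosen cells and in every cell of each of the other classes, so that the count could not separate the classes. No marker of the list went to 0 in the chosen cells, but all 7 were lower than in cells with neither gene, and free stellate RNA as a part of these shares was not tested.

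Markers of other cell types were counted in the same cells. Of the 8 mesothelial markers, 7 were at 0 UMIs in the chosen cells, which allows at most 0.526 CPM each, and the list summed to 0.175 CPM, in Krt18 alone. The endothelial list summed to 3.15 CPM (highest gene Pecam1, 2.102 CPM, with 2 genes at 0) and the hepatocyte list to 41.0 CPM against 67.8 in cells with neither (Alb, 15.6 against 25.5 CPM). The leucocyte list summed to 17.9 against 7.75 CPM, nearly all of it Lyz2 at 16.1 CPM, with Ptprc at 0.175 CPM. The cholangiocyte list summed to 14.7 CPM, against 17.3 in cells with Ltbp2 only, 3.47 with Alcam only and 1.23 with neither, and in the chosen cells all of it was Sox9, a transcription factor of ducts that fibroblasts also make, while Epcam, Krt7, Krt19 and Cldn4 were at 0.

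Among the lists of other cell types, the fibroblast list had the largest sum in the chosen cells. Its 6 genes summed to 1664 CPM in the chosen cells, 713 in cells with Ltbp2 only, 497 in cells with Alcam only and 302 in cells with neither. The sum came from 3 genes, namely Gpx3 at 996 against 232 CPM, Dpt at 628 against 47.0 CPM and Col15a1 at 25.9 against 2.89 CPM. The other fibroblast markers were low in the same cells, with Clec3b at 1.23, Fbln2 at 2.80 and Entpd2 at 10.7 CPM, against 1569, 219 and 227 CPM in the 6-week PF library. Pi16, a marker of adventitial fibroblasts looked up with Cd34 after their values were seen, stood at 0.876 CPM in the chosen cells, 3.46 in cells with neither and 668 in that PF library. Cd34, a sialomucin of progenitors and of many fibroblasts, stood at 40.3, 3.20 and 471 CPM in the same order (12.6-fold over cells with neither, 9.64 to 16.6), and Mfap4, one of the 12 largest folds up given below, at 118, 5.65 and 1149 CPM. Dpt and Lrat were found together in 445 of the 531 cells (83.8%), and 86.1% had Dpt against 21.7% of cells with neither and 2.86% of uninjured HSC cells. At least 3 of the 6 fibroblast markers were seen in 127 chosen cells (23.9%) and in 54 cells with neither (2.103%), and called doublets were 34 (6.403%) and 68 (2.65%). Leaving out called doublets gave 88 genes at least 2-fold higher, and leaving out cells with 3 or more markers of another type gave 78, against 86 with all cells.

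In the comparison of summed counts, 86 of 2990 genes with at least 50 CPM in the higher class were at least 2-fold higher in cells with both genes than in cells with neither (2.88%), and 95 were at least 2-fold lower (3.18%), with Ltbp2 and Alcam left out. The 12 largest folds up were Gas6, Igf1, Mfap4, Wt1, Dpt, Plxna4, Capn6, Svep1, Serpine2, Spidr, Fam180a and Plat. They are taken below by what each gene encodes.

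Gas6 and Igf1, both secreted ligands, had the highest folds. Gas6, the ligand of the TAM receptors that recognise dying cells, stood at 227 CPM in cells with both genes, 55.2 with Ltbp2 only, 32.1 with Alcam only and 8.63 with neither, a fold of 26.3 (22.7 to 30.8). Igf1, the growth factor that the liver supplies to the circulation, stood at 176, 37.1, 29.9 and 7.80 CPM in the same order, a fold of 22.6 (19.2 to 26.6). Midkine stood at 231, 86.5, 60.5 and 30.01 CPM, a fold of 7.68 (7.0 to 8.44). In these 3 genes the counting intervals of the chosen cells lay above those of each of the other classes.

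Matrix genes had folds of the same order. Mfap4, a microfibril-associated protein that binds elastin and collagen, stood at 118 CPM against 5.65, a fold of 20.8 (17.2 to 25.3). Dpt, the collagen-binding protein dermatopontin, was 13.4-fold higher (12.5 to 14.3), and Svep1, a large adhesion protein of the extracellular matrix, 11.4-fold higher (9.42 to 13.8). These 3 genes were again highest in the cells with both genes. Mfap4 was uneven among them, with a UMI in 29.2% of cells against 86.1% for Dpt and 45.4% for Svep1.

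Wt1 stood at 123 CPM in cells with both genes, 18.1 with Ltbp2 only, 51.4 with Alcam only and 7.05 with neither, a fold of 17.4 (14.7 to 20.8). Wt1 was higher in cells with Alcam only than in those with Ltbp2 only, as were Capn6, Svep1, Spidr, Fam180a and Plat, while Gas6, Igf1, Mfap4, Dpt, Plxna4 and Serpine2 were in the opposite order or nearly level. Capn6, a calpain without protease activity that binds microtubules, stood at 84.3, 9.07, 27.2 and 7.23 CPM in the order of classes given for Gas6. Plat, the tissue plasminogen activator, was 8.38-fold higher (7.49 to 9.38), and Serpine2, an inhibitor of thrombin and of plasminogen activators, 9.42-fold higher (8.60 to 10.3). Plxna4, a receptor for class 3 and 6 semaphorins, stood at 67.3 against 5.04 CPM. Spidr, a DNA repair scaffold, stood at 129 against 13.7 CPM, and Fam180a, which is little described, at 367 against 40.2 CPM.

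**Figure D2:**
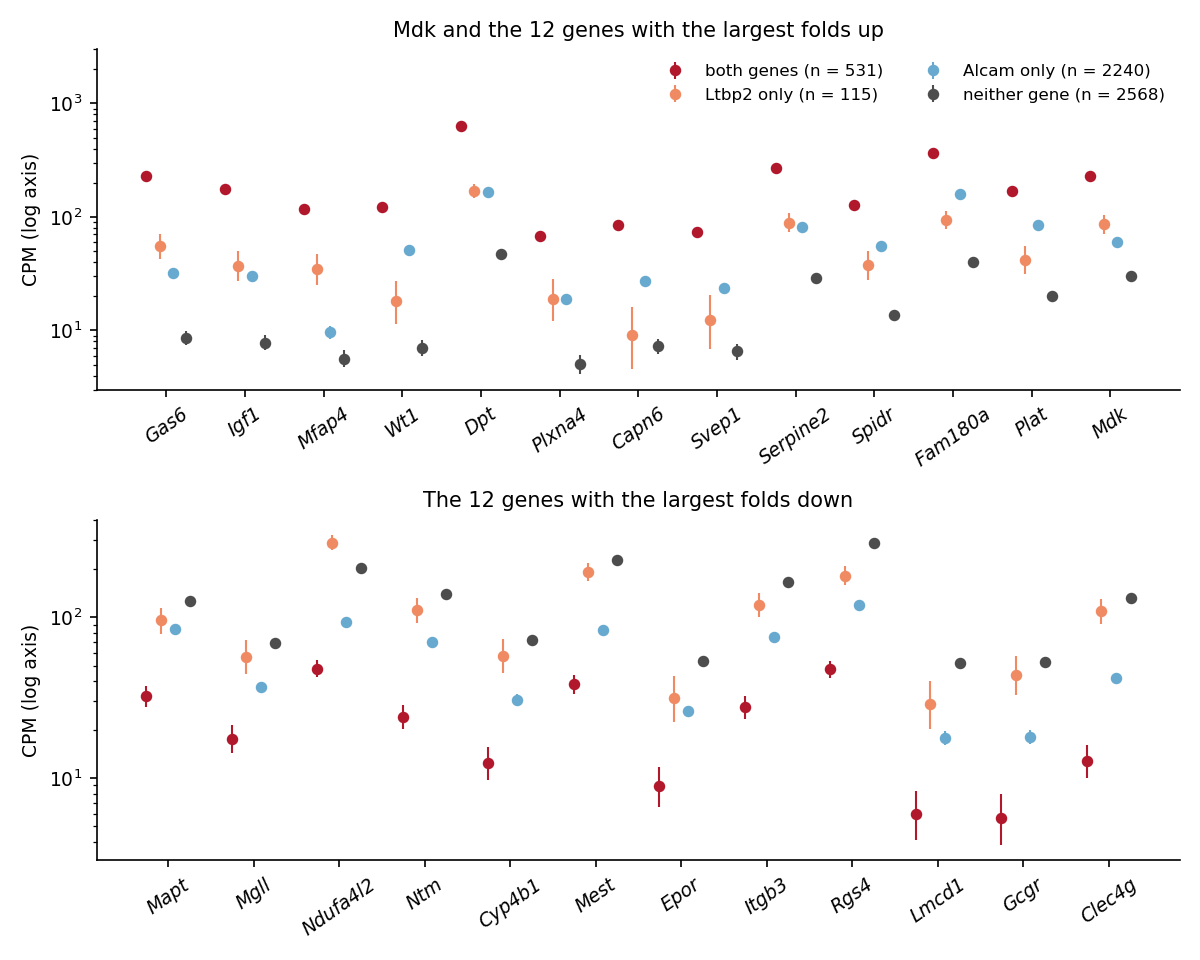
Level (CPM on a log axis) of Mdk and the 12 genes with the largest folds up (top) and the 12 with the largest folds down (bottom) in the 4 classes of cells of the 6-week HSC library; points are CPM of summed counts and bars exact Poisson 95% intervals, hidden where smaller than the point. Cells with both genes (red) are highest in every gene of the top row and lowest in every gene of the bottom row, as with Gas6 at 227 against 8.63 CPM in cells with neither.

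RefSeq promoters (250 bases before to 50 after a gene's start, GRCm38.p6) were matched for 9 of the 15 genes made up of Ltbp2, Alcam, Mdk, Wt1 and the rest of the 12 largest folds, namely Ltbp2, Alcam, Gas6, Igf1, Dpt, Capn6, Svep1, Serpine2 and Fam180a. Mdk, Wt1, Mfap4, Plxna4, Spidr and Plat were not matched. The 9 matched promoters were searched on both strands for the letters of 3 factors of activated stellate cells. These were TGANTCA (AP-1, N being any base), GGAATG (TEAD) and the CArG box of SRF, none of which contains another. The AP-1 letters were in 3 of the 9 promoters, with N as G in Fam180a, A in Igf1 and C in Capn6. With any base at N, they were in 7.81% of the 32851 promoters of the table. The TEAD letters were in 1 of the 9, that of Svep1, and in 14.7% of all promoters, and the CArG box was in none of the 9 and in 1.63% of all. These matches describe the letters in the windows. The stretches that hold them are shown because they are the sequence that these co-detected genes have in these windows, each written 5′ to 3′ on the gene's own strand with the motif in capitals. Distances are from the RefSeq start of the table. The GENCODE M21 genes Igf1 (chr10:87858265-87937042) and Svep1 (chr4:58042442-58206859) begin further upstream, so that those stretches lie inside the annotated gene.
Fam180a (AP-1, chr6:35326173-35326199, minus strand, 48 bases before the RefSeq start): acatgccccgTGAGTCActccagatgt
Igf1 (AP-1, chr10:87861064-87861090, plus strand, 37 bases before the RefSeq start): agctggaactTGAATCActattctgga
Capn6 (AP-1, chrX:143827454-143827480, minus strand, 58 bases before the RefSeq start): attttcctcgTGACTCAggatcagttt
Svep1 (TEAD, chr4:58206820-58206845, minus strand, 239 bases before the RefSeq start): agcttgtgagGGAATGttgacagcat

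Genes of each list were counted among those with at least 20 CPM in the higher class, where 2.99% of 5743 genes were at least 2-fold higher, 2.63% at least 2-fold lower, and the median log2 fold was -0.09. Fibrillar collagens had 2 of 5 genes at least 2-fold higher and none lower, with a median log2 fold of 0.93. Col1a1, the chain that is most abundant in scars, stood at 1727 against 360 CPM, a fold of 4.80 (4.66 to 4.95). Col1a2, its partner, was 2.36-fold higher (2.30 to 2.41), while Col3a1 at 1.91-fold was under the limit and Col5a1 stood at 157 against 204 CPM. Thinned to 4000 UMIs, with each cell kept in its class, the 511 chosen cells of that depth had a median of 21 UMIs of Col1a1, Col1a2 and Col3a1 (quartiles 13 to 34), the 104 cells with Ltbp2 only 10.5 (6 to 17.25), the 2101 cells with Alcam only 12 (8 to 18) and the 2294 with neither 9 (6 to 13), so that the distributions overlapped. The 7 fibrillar collagen genes summed to 7128 CPM in the chosen cells, 6008 with Ltbp2 only, 4005 with Alcam only and 3148 with neither, and Col3a1 stood at 2906 CPM in cells with Ltbp2 only.

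Elastic fibre genes had 4 of 12 at least 2-fold higher and none lower, with a median log2 fold of 0.50. Eln, which encodes elastin, stood at 148 against 30.8 CPM, and Mfap2, a fibrillin partner, at 127 against 29.9 CPM. Fbn1, the main fibrillin of the microfibril, was level at 114 against 115 CPM. Among the relatives of Ltbp2, Ltbp1 stood at 103 against 72.0 CPM, Ltbp3 at 55.7 against 37.0 and Ltbp4 at 152 against 134, so that none reached 2-fold. Of the folding and crosslinking genes 2 of 13 were at least 2-fold higher, both of the lysyl oxidase family that joins collagen and elastin, with Loxl1 at 273 against 64.5 CPM and Lox at 42.2 against 13.6 CPM, while Serpinh1, the collagen chaperone, was level at 2010 against 2167 CPM.

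Other matrix genes were divided. Of the 17 matricellular, proteoglycan and protease genes, 4 were at least 2-fold higher (Lum, Fmod, Mmp2 and Adamts5) and 1 was lower (Ecm1). Lum, a collagen-binding proteoglycan, stood at 3044 against 1227 CPM, and Mmp2, a gelatinase, at 664 against 203 CPM. Dcn, the most abundant gene of the list, stood at 20654 against 27774 CPM. Of 10 other collagens 4 were at least 2-fold higher (Col4a5, Col6a2, Col6a3 and Col15a1), whereas Col14a1, the most abundant of them, stood at 1057 against 1811 CPM.

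Growth factor and Wnt genes had 6 of 13 at least 2-fold higher and none lower, with a median log2 fold of 0.77. Beside Igf1 they were Igfbp4, which holds IGF in complexes, at 1188 against 196 CPM, the ligands Wnt4 at 253 against 95.8 and Wnt5a at 51.7 against 13.6 CPM, Dkk3 at 215 against 79.0 CPM and the receptor Fzd1 at 59.0 against 27.9 CPM. None of the 19 TGF-beta ligands, receptors, Smads and targets passed 2-fold in either direction, with a median log2 fold of 0.12. Their largest shifts were Tgfb1, the ligand, at 67.1 against 126 CPM, and Tgfbr1, a receptor, at 57.6 against 33.2 CPM. Of the 7 receptors and relatives of midkine at that level, Sdc1 was 2.95-fold higher (2.32 to 3.73) and Sdc3 lower at 0.424-fold (0.3803 to 0.472), both being heparan sulfate proteoglycans, and Lrp1, a large endocytic receptor, stood at 449 against 371 CPM.

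Adhesion genes were split, with Ncam1 (45.7 against 4.73 CPM) and Itga8 (217 against 90.5 CPM) at least 2-fold higher, and Mcam, Cadm3 and Itgb3 at least 2-fold lower, of 11. Ncam1 encodes a neural adhesion molecule that liver mesenchyme also makes, and Itga8 an integrin chain that binds nephronectin. Among stellate lineage transcription factors none of 13 passed 2-fold. Tcf21 stood at 371 against 224 CPM, Hand2 at 400.0 against 420 and Lhx2 at 225 against 277. Cell division genes stayed under 20 CPM and summed to 19.8 CPM in the chosen cells and 68.5 in cells with neither.

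The genes of resting stellate cells were lower. Of the 18 quiescence and retinoid genes, 9 were at least 2-fold lower and none higher, with a median log2 fold of -1.09. Angptl6, a secreted angiopoietin-like protein, stood at 453 against 1540 CPM, Pth1r, the receptor of parathyroid hormone, at 256 against 834, and Rgs5, a regulator of G protein signalling, at 1026 against 2848. Lrat stood at 1064 against 1662 CPM, a fold of 0.640 (0.623 to 0.658), nearer to level than Pth1r at 0.307 (0.291 to 0.324). Dhrs3, a retinal reductase, went the other way, at 242 against 135 CPM.

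Contractile genes were lower as well, with 5 of 13 at least 2-fold lower, none higher and a median log2 fold of -0.86. Acta2, the smooth muscle actin of myofibroblasts, stood at 94.1 against 223 CPM (fold 0.422, 0.385 to 0.461), Tagln at 259 against 806 CPM and Myl9 at 150 against 428 CPM. At the cells' own depths a UMI of Acta2 was seen in 28.8% of chosen cells and 23.4% of cells with neither. At least 10 UMIs of it were seen in 9 chosen cells (1.69%), 48 with Alcam only (2.14%), 7 with Ltbp2 only (6.09%) and 116 with neither (4.52%). Thinned to 4000 UMIs, the 511 chosen cells had a median of 1 UMI of Acta2, Tagln and Myl9 together (quartiles 0 to 2). The 2101 cells with Alcam only had the same median of 1 (0 to 3), the 104 with Ltbp2 only 3 (0 to 5) and the 2294 with neither 2 (1 to 6). Vim, the intermediate filament vimentin, was the most abundant gene of the list and stood at 1497.5 against 820 CPM. Smooth muscle markers summed to 521 against 1351 CPM, with Cnn1 at 0 UMIs in both classes.

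Of 12 chemokine, cytokine and acute phase genes, 3 were at least 2-fold lower and 1 higher, with a median log2 fold of -0.36. Ccl2, the monocyte chemokine, stood at 172 against 591 CPM, Cxcl10, an interferon-induced chemokine, at 153 against 429 CPM, and Il34, a ligand of the macrophage receptor CSF1R, at 86.5 against 232 CPM. Complement C3 was 3.05-fold higher (2.74 to 3.39), at 107 against 35 CPM, but was highest in cells with Ltbp2 only, at 301 CPM. Cxcl12, the most abundant gene of the list, stood at 6056 against 5187 CPM. No gene among 12 of the interferon response, 14 of the secretory pathway, 9 immediate early or 9 heat shock genes passed 2-fold in either direction. Their median log2 folds were -0.52, -0.19, -0.22 and -0.51 in that order, all below the -0.09 of all genes. Folds below 1 were found for 11, 12, 9 and 8 of these genes.

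The 12 largest folds down were Clec4g, Gcgr, Lmcd1, Rgs4, Itgb3, Epor, Mest, Cyp4b1, Ntm, Ndufa4l2, Mgll and Mapt. Clec4g, a C-type lectin, stood at 12.8 CPM in cells with both genes, 109 with Ltbp2 only, 41.8 with Alcam only and 131 with neither, a fold of 0.0977 (0.0764 to 0.123). Gcgr, the glucagon receptor, stood at 5.61, 43.7, 18.1 and 52.3 CPM in the same order. Rgs4 stood at 47.3 against 288 CPM, Itgb3, the integrin beta 3 chain, at 27.5 against 166 CPM, and Epor, the erythropoietin receptor, at 8.93 against 53.5 CPM. For all 12 genes, cells with Alcam only lay between cells with both genes and cells with neither, and cells with Ltbp2 only were above cells with Alcam only.

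Several of these were among the genes that the study had listed as marking portal stellate cells in the uninjured HSC library, from which the present cells were not drawn. Of 51 portal genes at 20 CPM or more, 24 were at least 2-fold lower in cells with both genes and 1 higher, with a median log2 fold of -0.91. The lists overlap. Among the 24, Tagln, Myl9, Myh11, Ngfr, Ccl2, Il34 and Itgb3 were also counted in the contractile, quiescence, chemokine or adhesion lists above. Of 28 central vein genes, 7 were at least 2-fold higher (Inmt, Loxl1, Htra3, Adamts5, Podn, Lum and Adamtsl2) and 1 lower (Fcna), with a median of 0.35. Adamtsl2, a matrix protein that binds fibrillin, stood at 196 against 63.6 CPM, and Htra3, a secreted serine protease, at 303 against 74.7 CPM. Exceptions ran in both lists. Htra1, on the portal list, was 7.20-fold higher (6.43 to 8.08), and Fcna, on the central list and the ficolin of stellate cells, stood at 376 against 959 CPM. Thinned to 4000 UMIs, the same 511 chosen cells had a median of 56 UMIs of the portal genes (quartiles 44 to 71). The 2101 cells with Alcam only had 64 (51 to 82), the 104 with Ltbp2 only 74 (61 to 109.5) and the 2294 with neither 84.5 (64 to 110). Of the central genes the medians were 35 (29 to 44), 33 (25 to 40), 27 (19 to 37) and 26 (18 to 34) in that order.

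**Figure D3:**
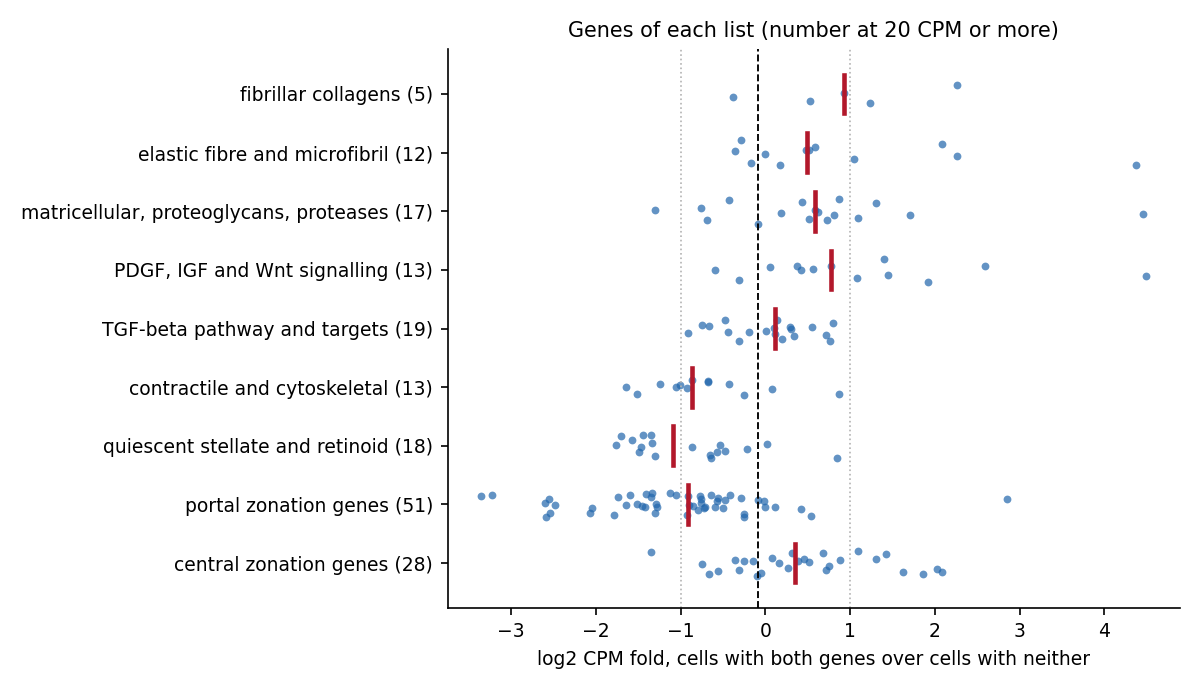
Log2 CPM fold of cells with both genes over cells with neither, for each gene (blue point) of 9 lists with at least 20 CPM in the higher class; red bars are list medians, dotted lines mark 2-fold and the dashed line is the median of all 5743 genes (-0.09). Quiescence, contractile and portal genes lie mostly to the left (medians -1.09, -0.86 and -0.91), while matrix and growth factor lists spread to the right.

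The levels also differed among the chosen cells by how many Ltbp2 UMIs they held, at similar median depths. Ltbp2 was part of the rule, and the genes given were picked from folds or values in these same cells. The steps are therefore a description. There were 304 cells with 1 Ltbp2 UMI, 144 with 2 or 3 and 83 with 4 or more, with median depths of 10573, 10406.5 and 10887 UMIs. The quartiles of depth were higher at each step, at 8113 to 12444.5, 8370.25 to 12935.2 and 9088 to 13362 UMIs. Gas6 stood at 135, 256 and 497 CPM in that order, Mfap4 at 48.1, 136 and 325 CPM, and Dpt at 435, 720 and 1137 CPM. Col1a1 stood at 1284, 1828 and 3076 CPM. Each of these was higher at each step, and Wt1 less steeply so, at 95.2, 150 and 173 CPM. In the opposite direction Lrat stood at 1218, 970 and 694 CPM, Rgs5 at 1320.1, 810.3 and 383 CPM, and Ccl2 at 232, 125 and 45.0 CPM. Acta2 followed no order, at 72.1, 126 and 116 CPM. The share of cells with at least 3 of the 6 fibroblast markers, Dpt among them, was also higher at each step, at 17.1%, 28.5% and 41.0%, and its part in these levels was not tested. Cells at the edge of the rule, with 1 UMI of each gene, had Gas6 at 62.1, Mfap4 at 19.5 and Lrat at 1649 CPM.

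**Figure D4:**
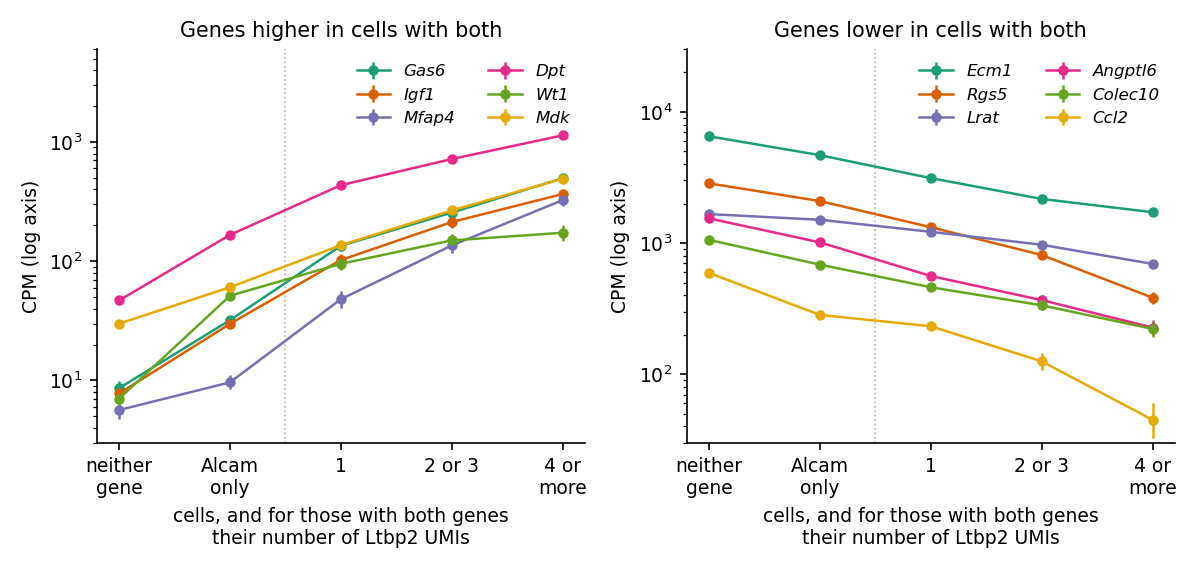
Level (CPM on a log axis) of 6 higher and 6 lower genes in cells with neither gene, cells with Alcam only, and cells with both genes split by 1, 2 or 3, and 4 or more Ltbp2 UMIs (304, 144 and 83 cells; right of the dotted line); bars are exact Poisson 95% intervals. Gas6 reaches 497 CPM and Lrat 694 CPM in cells with 4 or more Ltbp2 UMIs. The rule used Ltbp2, and the genes were picked from values in these same cells.

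Cells with Alcam only differed less from cells with neither. Against cells with neither, 14 of 2900 genes at 50 CPM or more were at least 2-fold higher (0.483%) and 13 at least 2-fold lower (0.448%). In the 651 of them with 4 or more Alcam UMIs, Wt1 stood at 107 CPM, close to the 123 CPM of the chosen cells, whereas Mfap4 stood at 16.7 against 118 CPM and Gas6 at 60.8 against 227 CPM.

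The leading genes were also counted cell by cell, where at this depth a gene of under 100 CPM averages about 1 UMI per cell or less, so that 0 UMIs does not show that a cell lacked it. Of the 8 genes with the largest folds up (Gas6, Igf1, Mfap4, Wt1, Dpt, Plxna4, Capn6 and Svep1), a chosen cell had UMIs of a median of 4, a cell with Alcam only or Ltbp2 only of 1, and a cell with neither of 0. At least 4 were seen in 321 of 531 chosen cells (60.5%, 56.2 to 64.6), 14 of 115 with Ltbp2 only (12.2%), 299 of 2240 with Alcam only (13.3%) and 19 of 2568 with neither (0.740%). All 8 were seen in 24 chosen cells, and none in 22. Of the 653 cells with at least 4 of the genes, 49.2% were chosen by the rule and 45.8% had Alcam only, and with all cells thinned to 4000 UMIs and the classes formed anew (267 with both genes) these shares were 41.9% and 46.9%. The 8 genes were taken for their folds in these same cells, so that the difference between chosen cells and cells with neither was set by that choice, and the shares are a description. In uninjured HSC cells, at a median of 6718 UMIs, a UMI of Gas6 was seen in 0.978% of cells, of Mfap4 in 0.102% and of Wt1 in 0.569%.

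The same classes were formed in the 72 h HSC library, which the rule had not used. There 54 of 3011 genes at 50 CPM or more were at least 2-fold higher in cells with both genes than in cells with neither (1.79%) and 72 at least 2-fold lower (2.39%), and the depth gap was wider, with medians of 14123 and 9434 UMIs. Of the 12 largest folds up at 6 weeks, 11 were at least 2-fold higher at 72 h as well. Gas6 stood at 70.4 against 9.36 CPM, Mfap4 at 67.1 against 9.48, and Wt1 at 56.9 against 9.65. The exception was Spidr, at 8.21 against 7.42 CPM. Of the 12 largest folds down, 10 were at least 2-fold lower at 72 h, the others being Mgll at 45.5 against 80.4 CPM and Lmcd1 at 4.16 against 1.94 CPM.

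Over 2679 genes at 50 CPM or more in both libraries, 29 were at least 2-fold higher in both, which is 29 of the 58 higher at 6 weeks and of the 38 higher at 72 h. Likewise 38 were at least 2-fold lower in both, of 75 and 67. Only 1 of these genes was past 2-fold in opposite directions, and it was Acta2, at 1247 against 513 CPM in the 72 h library (2.43-fold, 2.38 to 2.48). Tagln stood at 848 against 658 CPM and Myl9 at 437 against 466 CPM there. Col1a1 was higher in both libraries, at 3419 against 887 CPM at 72 h, whereas Htra1 stood at 22.6 against 29.9 CPM, C3 at 5.38 against 5.27 CPM and Wnt4 at 256 against 300.02 CPM, each of them at least 2-fold higher at 6 weeks. Whether any of these folds differed between the libraries was not tested, as each condition had 1 library.

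**Figure D5:**
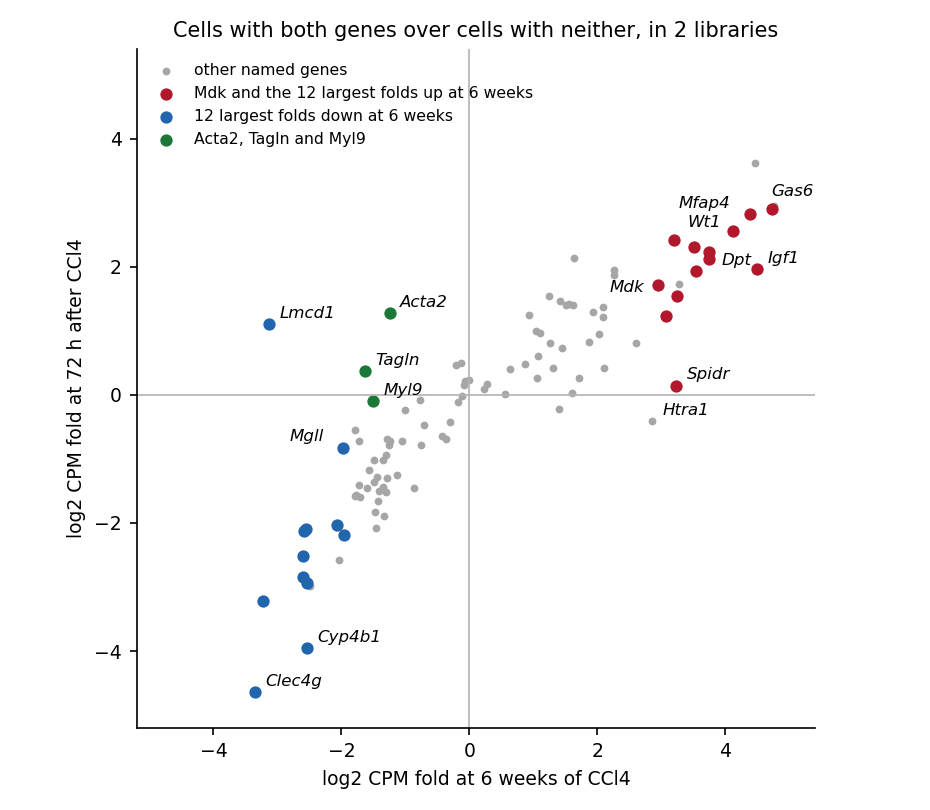
Log2 CPM fold of cells with both genes over cells with neither at 6 weeks (x axis) and 72 h (y axis) for the genes named from each rule and list, without Ltbp2 and Alcam; red points are Mdk and the 12 largest folds up at 6 weeks, blue points the 12 largest down, green points Acta2, Tagln and Myl9. Most points lie on the same side of 0 in both libraries, and Acta2 lies at -1.24 and 1.28.

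Of the 12 largest folds up, Gas6, Igf1, Mfap4, Wt1, Dpt, Plxna4, Svep1, Serpine2 and Plat were higher in both whole PF libraries than in any HSC library. Fam180a, Capn6 and Spidr were not. At 6 weeks Igf1 stood at 36.4 against 414 CPM in the HSC and PF libraries, and Dpt at 165 against 1554. Svep1 stood at 21.4 against 89.2, Serpine2 at 79.5 against 243, Plat at 64.6 against 141 and Plxna4 at 18.1 against 30.4 CPM. Gas6 stood at 2.78 CPM in the uninjured, 41.5 in the 72 h and 43.7 in the 6-week HSC library, against 922 and 795 CPM in the uninjured and 6-week PF libraries. Mfap4 stood at 0.302, 37.1 and 20.3 CPM in the HSC libraries and at 1415 and 1149 in the PF libraries. Fam180a and Capn6 differed from these, with Fam180a at 16.4, 56.9 and 128 CPM in the HSC libraries against 48.9 and 48.3 in the PF libraries, and Capn6 at 7.87, 84.3 and 24.3 CPM against 7.90 and 10.2. Wt1 stood at 1.10, 34.2 and 39.1 CPM against 57.0 and 43.9, and Mdk at 11.1, 41.6 and 66.4 CPM against 93.5 and 67.1. Spidr was highest in the 6-week HSC library, at 44.7 CPM, against 11.2 and 7.82 in the other HSC libraries. RNA from fibroblasts in the suspension as a part of these levels was not tested. The values of all 6 fibroblast markers, and of Pi16, Cd34 and Mfap4, were lower in the chosen cells than in the 6-week PF library, with Gpx3 at 996 and 1895.5 CPM, Dpt at 628 and 1554, Mfap4 at 118 and 1149, Cd34 at 40.3 and 471, Col15a1 at 25.9 and 147, Entpd2 at 10.7 and 227, Fbln2 at 2.80 and 219, Clec3b at 1.23 and 1569, and Pi16 at 0.876 and 668 CPM. Of these 9 genes the first 5 were higher in the chosen cells than in cells with neither, and Entpd2, Fbln2, Clec3b and Pi16 were not. The 6-week PF library also held smooth muscle RNA, with Acta2 at 6986 and Myh11 at 985 CPM. A UMI of Dpt was seen in 71.8% of its cells, so its levels are those of a mixture and not of fibroblasts alone.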

How the data were processed

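The authors aligned 10x Genomics 3' v2 reads to mm10 with Cell Ranger 2.1.0 (STAR is also named in the submitters' processing notes) and deposited raw UMI counts per gene and cell for 5 droplet libraries. Plate-based samples were not used here, and some list members are not reported here. Genes in fewer than 3 cells were left out. Members, lists and named genes were chosen with earlier results of these data known. Counts were summed over the cells of a class, scaled to CPM and compared as folds with exact conditional intervals, and shares were given exact binomial intervals. A class at 0 was set to 3 counts for a fold. No test was run, since each condition had 1 library, and a gene was called past 2-fold. Named were Ltbp2, Alcam, Mdk and Wt1, the 12 largest folds each way at 50 CPM or more, and from each list the members past 2-fold and its most abundant one. Genes named outside this rule, chosen after their values were seen, were Pi16, Cd34, Cyp2e1 and single list members under 2-fold or 20 CPM. Doublets were called against 2 simulated sums per cell at 0.8% per 1000 cells (238 of 5454), and 51 of 100 planted sums were recovered. On simulated counts for 2813 genes, 100 of 100 genes raised 3-fold passed 2-fold, and 95.6% of intervals held the planted fold. The simulation drew Poisson counts, the model that the intervals assume, so it checked the code and not the spread between cells. Alternatives are given in the closing section. Software was Python 3.11.15, NumPy 2.4.6, SciPy 1.17.1 and scikit-learn 1.9.0.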

Additional observations from a re-analysis of the deposited data

Results flagged for a closer look

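Acta2 differed in direction between the 2 injured HSC libraries. Its log2 fold of cells with both Ltbp2 and Alcam over cells with neither was 1.28 at 72 h and -1.24 at 6 weeks, with intervals of the fold of 2.38 to 2.48 and 0.385 to 0.461. Each value came from 1 library of 3 pooled mice, and the difference was not tested.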

How the results depend on the processing

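The share of cells with both genes depended on depth and rule. It was 9.74% at each cell's own depth, 3.92% with at least 2 UMIs of each gene, 5.33% and 2.46% after thinning to 4000 and 2000 UMIs (4.95% in a second draw at 4000, an alternative added after seeing the data) and 7.96% without cells holding 3 or more markers of another type. In the other libraries, an alternative also added after seeing the data, thinning to 4000 and 2000 UMIs gave 7.82% and 3.34% at 72 h, 0.186% and 0.133% in the 6-week PF library, 0.124% and 0.111% in the uninjured PF library, and 0 of 6736 cells in the uninjured HSC library at 2000, which allows up to 0.0445% when 3 counts are set in place of 0. The count of genes at least 2-fold higher (86) was 172 at 2000 UMIs, 56 against all other cells, 172 from 20 CPM and 2240 with no limit on CPM. Without that limit, the 3 counts set in place of 0 can call a gene higher that had 0 UMIs in cells with both genes. Kdr, with 0 UMIs there and 5 in cells with neither, had a fold of 2.40 in this way. The 2240 is therefore not a count of genes raised in the chosen cells. The count at least 2-fold lower (95) was 171 with 2 UMIs of each gene, 220 at 2000 UMIs, 148 in the second draw at 4000, 49 against all other cells, 151 from 20 CPM and 798 with no limit. Weighting cells with neither gene to the same depths gave 78 and 101, and leaving out called doublets 88 and 110. Of 107 named genes 87 were past 2-fold, and none of the 87 changed sign under any of the 9 alternatives run on them, between 69 (against all other cells) and 87 staying past 2-fold. The list medians that changed sign under at least 1 alternative were those of stellate lineage transcription factors, other collagens without cells holding markers of another type, and TGF-beta genes at 2000 UMIs. Depth limits genes under 20 CPM and the share of cells with a UMI. No paired analysis was possible because each condition and isolation had 1 library, made from 3 pooled mice.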

Other observations

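A few more genes stood apart in cells with both genes at 6 weeks, all of them picked after their values were seen. Cyp2e1, a cytochrome P450 that activates CCl4 and is abundant in hepatocytes, stood at 54.0 against 9.16 CPM, while Alb in the same cells stood at 15.6 against 25.5 CPM. Fbn2, the fibrillin of developing tissue, stood at 12.1 against 0.657 CPM (18.4-fold, 10.4 to 34.6), whereas Fbn1 was level. At 72 h Fbn2 stood at 19.9 against 2.07 CPM and Cyp2e1 at 20.2 against 4.38 CPM, and Cd34 at 19.4 against 11.8 CPM (1.64-fold), under 2-fold.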
